A study of Homo sapiens with 22 samples.

Results

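The peaks of WAPL were set against the peaks of CTCF in wild-type hTERT RPE-1 cells, a telomerase-immortalised human retinal pigment epithelial line, each protein from 1 chromatin immunoprecipitation sequencing (ChIP-seq) library. A CTCF peak was called WAPL-positive when it shared at least 1 bp with a WAPL peak and WAPL-free otherwise. Of 59138 CTCF peaks, 2636 were WAPL-positive and 56502 were WAPL-free. WAPL-free means that no WAPL peak was called at the depth of this library, not that the protein was absent. Cohesin was read from other cells of the same line: the RAD21, STAG1, STAG2, PDS5A and HA lists come from 2 clones, A2 (mCherry-P2A-FKBP12(F36V)-NIPBL) and D7 (mGreenLantern-P2A-FKBP12(F36V)-NIPBL), in which the loader NIPBL carries a tag that lets the small molecule dTAGV-1 degrade it. Each genotype is 1 clone. Both clones gave RAD21 libraries of cells kept 24 h in DMSO, the solvent, or exposed to dTAGV-1 for 4 h or for 24 h; PDS5A was precipitated in clone D7 after 24 h in DMSO; STAG1 and STAG2 in clone D7 and HA in clone A2 have no treatment label. The RAD21 and PDS5A chromatin was mixed with about 10% spike-in chromatin of mouse NIH/3T3 cells, and the wild-type WAPL and CTCF chromatin carried none. Of the 22 samples in the labels, 12 have a peak list and the others are inputs. Peak lists hold no expression, so the label of the cell line was not checked against marker genes.

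Cohesin is a ring-shaped complex of SMC1A, SMC3, the kleisin RAD21 and either STAG1 or STAG2, which extrudes loops of DNA until it is held at CTCF, a zinc-finger protein that binds an asymmetric motif and holds cohesin on one side of it. WAPL opens the ring and releases cohesin from DNA, and it does so together with PDS5A or PDS5B, which bind the kleisin. CTCF is known to shield cohesin from WAPL, so where WAPL itself is cross-linked relative to CTCF and to the subunits of cohesin is a question these lists can address.

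With 1 library per group there is no replicate error. Shares carry 95% Wilson intervals and matched differences 95% intervals that cover counting error over peaks only, and no p-value was computed. Fold enrichment is the authors' value for a peak, the summit over its local background, and was compared only within a list. The WAPL library was shallow: the recovered pileup at WAPL summits ran from 13 to 155 fragments (median 39, quartiles 31 and 49), over a local background with a median of 3.93, and the fold enrichment from 2.97 to 28.6 (median 7.84). The lowest background pileup was 2.97 for WAPL and 13.4 for CTCF. The CTCF library alone was size-selected, its kit was not that of WAPL, and the value carried in its peak names is 0.001 against 0.01 in the WAPL list.

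The sequences below show sites with a CTCF core in promoter windows. They are the eligible WAPL-positive sites of highest WAPL fold and the eligible WAPL-free sites of highest CTCF fold. Higher peaks of either class without an eligible site are not shown, and every printed site holds the core by choice. Each is 60 bases of GRCh38.p14 from the RefSeq promoter table, written 5′ to 3′ on the strand of the motif, with the core in capitals: CCA, any 2 bases, AG, any 2 bases, GGC. Only windows before the gene start and outside every annotated gene were eligible, 14 for WAPL-positive and 89 for WAPL-free CTCF peaks. The first 5 are WAPL-positive and are ordered by WAPL fold.

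LINC02551, chr11:130862142-130862201, minus strand: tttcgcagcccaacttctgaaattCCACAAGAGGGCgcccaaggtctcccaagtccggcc

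LOC101927369, chr17:36149111-36149170, minus strand: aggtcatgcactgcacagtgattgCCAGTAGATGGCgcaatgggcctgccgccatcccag

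LINC00398, chr13:30803040-30803099, minus strand: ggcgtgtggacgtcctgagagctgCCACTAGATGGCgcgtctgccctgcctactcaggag

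LOC105378621, chr1:30782470-30782529, plus strand: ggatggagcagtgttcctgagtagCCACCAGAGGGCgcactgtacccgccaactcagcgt

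AHCYL1, chr1:109984561-109984620, minus strand: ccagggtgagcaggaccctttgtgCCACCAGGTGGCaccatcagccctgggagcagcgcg

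The WAPL-free sites are ordered by CTCF fold.

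TMEM170A, chr16:75464824-75464883, minus strand: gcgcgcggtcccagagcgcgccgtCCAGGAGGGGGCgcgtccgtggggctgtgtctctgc

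FLT3LG, chr19:49474126-49474185, plus strand: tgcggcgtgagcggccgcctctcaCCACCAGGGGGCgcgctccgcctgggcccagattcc

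MED4, chr13:48095214-48095273, minus strand: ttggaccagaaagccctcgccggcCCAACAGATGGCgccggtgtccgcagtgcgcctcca

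STAG1, chr3:136752383-136752442, minus strand: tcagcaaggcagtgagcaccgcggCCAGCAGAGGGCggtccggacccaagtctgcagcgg

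By the way they were chosen, the printed WAPL-free sites had the higher CTCF enrichment, with CTCF folds of 189 at TMEM170A, 161 at FLT3LG, 153 at MED4 and 147 at STAG1 against 135 at LINC02551, 93.5 at LOC101927369, 115 at LINC00398, 94.4 at LOC105378621 and 110 at AHCYL1. The printed sites also differed in cohesin, but the classes were chosen on unlike measures, WAPL fold and CTCF fold. Over 2633 WAPL-positive peaks WAPL fold rose with RAD21 fold of clone A2 in DMSO (Spearman rho 0.41). Choosing by WAPL fold thus favours sites of high RAD21. The WAPL-free CTCF peak of highest fold, near VPS36, is not among the printed sites and had a RAD21 fold of 86.7 in clone A2. RAD21 of clone A2 in DMSO had a fold of 128, 108, 90.2, 49.9 and 114 at the WAPL-positive sites in the printed order, and of 15.4, 13.5 and 16.1 at TMEM170A, FLT3LG and MED4, where no STAG2 peak was called. The promoter of STAG1, which encodes a cohesin subunit itself, was the exception, with a RAD21 fold of 56.5 and a STAG2 fold of 6.27. The core stood in 28.6% (20.3 to 38.6) of 91 promoter windows that hold a WAPL-positive CTCF summit, in 9.89% (8.81 to 11.1) of 2680 windows that hold a WAPL-free one, and in 2.42% of all 34789 windows of that length, searched on both strands. Among windows with a CTCF summit of the upper 20% by fold the shares were 31.6% (22.4 to 42.5) of 79 and 18.6% (15.9 to 21.7) of 683, and these intervals do not overlap. The classes were not matched on CTCF fold within that upper 20%, where WAPL is more frequent at higher CTCF fold. Windows of neighbouring starts may also hold the same summit. A window without the core may hold a CTCF site with other letters.

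WAPL peaks lay almost entirely at CTCF. Of 2667 WAPL peaks, 2645 (99.2%, 98.8 to 99.5) shared at least 1 bp with a CTCF peak, the shortest overlap was 133 bp, and 2633 of the 2645 lay whole inside the CTCF peak. In the other direction, 4.46% (4.29 to 4.63) of CTCF peaks held a WAPL peak, and 9 of them held 2. WAPL-positive CTCF peaks tended to have a high CTCF fold, with a median of 87.6 (quartiles 67.1 and 110.3) against 14.1 (5.76 and 42.1) at WAPL-free peaks. Of the 2636 CTCF peaks of highest fold, 874 (33.2%) were WAPL-positive. Across deciles of CTCF fold, 8 of 29569 peaks in the lower 5 deciles held WAPL (0.0271%), then 10, 69, 257, 714 and 1578 of about 5914 in each of the upper 5, so that the tenth decile reached 26.7% (25.6 to 27.8). The share went on rising within that decile, to 39.0% (36.0 to 42.1) of the 1000 highest CTCF peaks and 52 of the 100 highest. WAPL-free peaks were therefore left to match even at the top of the CTCF list.

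**Figure D1:**
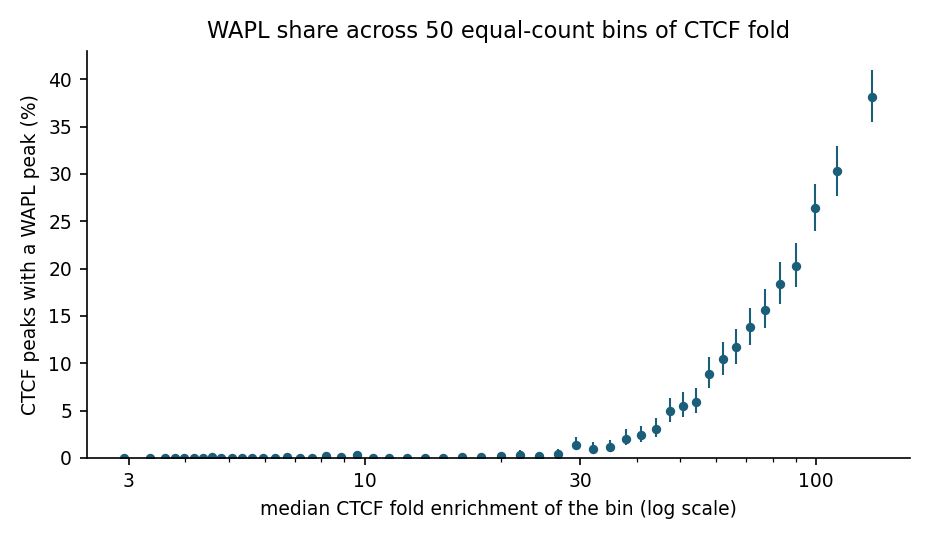
Share of CTCF peaks with a WAPL peak (vertical axis, percent) in 50 equal-count bins of CTCF fold enrichment (horizontal axis, bin median, log scale); points are shares and lines 95% Wilson intervals. The share stays near 0 below a CTCF fold of about 25 and reaches 38.2% in the highest bin, the upper 2% of CTCF peaks.

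The 10 WAPL peaks of highest fold were all centred on strong CTCF peaks and held every cohesin list. The highest, at chr17:17356009-17356532 and 8586 bp from NT5M, which encodes a mitochondrial nucleotidase, had a WAPL fold of 28.6 and its summit on the same base as the CTCF summit. At that site the fold was 141 for CTCF, 132 for RAD21 in clone A2, 104 for RAD21 in clone D7, 134 for PDS5A, 96.9 for STAG1 and 26.6 for STAG2. The next lay inside CACNA2D4, an auxiliary calcium channel subunit (WAPL fold 27.3), 21555 bp from EFL1, a GTPase of ribosome maturation (27.2), 2179 bp from RAB17, a small GTPase of epithelial trafficking (26.9), and 4628 bp from MTFR2, a regulator of mitochondrial fission (26.7). ENAH, an actin regulator (26.4), TMCC2 (22.8), COMTD1 (22.6), the forkhead factor gene FOXC2 (22.2) and the trypsin gene PRSS3 (21.7) were the protein-coding genes nearest to the other 5. In these 10 peaks the WAPL summit lay 0 to 38 bp from the CTCF summit, and all 10 overlapped RAD21 in each of the 6 RAD21 libraries. Their CTCF peaks were not simply the highest of the list: the one near RAB17 ranked 3408 by CTCF fold (95.5), while those near ENAH and COMTD1 ranked 4 and 5.

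The 5 WAPL-free CTCF peaks of highest CTCF fold lay 97 bp from VPS36, inside LINGO1, inside CACNB3, 4468 bp from NCF4 and 2994 bp from TFAP4, with CTCF folds of 229, 222, 210, 204 and 202. RAD21 of clone A2 was present at all of them, with folds of 86.7, 21.2, 13.8, 17.2 and 64.2 in that order. STAG2 was called at 3 of the 5, with folds of 24.6 near VPS36, 4.69 in LINGO1 and 9.90 near TFAP4. The peak near VPS36, a subunit of the ESCRT-II sorting complex, therefore had CTCF, RAD21, both STAG subunits and PDS5A (fold 42.9) at high levels and still no WAPL call.

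Cohesin was more often called, and stronger, at WAPL-positive CTCF peaks than at WAPL-free peaks of equal CTCF fold. For this comparison CTCF peaks were put into 50 bins of CTCF fold, and the WAPL-free peaks were weighted to the bins of the WAPL-positive ones, which used 30 bins and 32848 WAPL-free peaks. RAD21 of clone A2, which overlapped 57.4% of all CTCF peaks, was called at 99.9% of WAPL-positive peaks and 96.1% of matched WAPL-free ones, a difference of 3.83 percentage points (3.33 to 4.34). RAD21 of clone D7, at 52.8% of all CTCF peaks, was called at 99.3% and 94.4%, which differ by 4.88 points (4.30 to 5.47). Both lists were long and close to full at CTCF peaks this strong, with or without WAPL. With each list cut to its 20000 peaks of highest fold, the differences were 18.8 points for the A2 list of RAD21 and 14.5 for the D7 list.

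STAG1, STAG2 and PDS5A, whose lists are shorter, differed by more between the classes as deposited. STAG1 overlapped 40% of all CTCF peaks, 98.2% of WAPL-positive and 85.8% of matched WAPL-free peaks, a difference of 12.4 points (11.5 to 13.2). For STAG2, at 32.3% of all CTCF peaks, the difference was the largest of the 5 lists, 97.5% against 69.4% or 28.1 points (26.9 to 29.2). At 20000 peaks a list STAG2 still differed most, by 29.5 points, while STAG1 (17.1) and PDS5A (14.1) lay below RAD21 of clone A2. Both STAG1 and STAG2 stood at 95.9% of WAPL-positive peaks and 64.5% of matched WAPL-free ones, against 25.3% of all CTCF peaks. STAG1 without STAG2 was correspondingly rare, at 2.24% of WAPL-positive against 21.3% of matched WAPL-free peaks (14.7% of all CTCF peaks), and neither subunit at 0.266% against 9.26% (53% of all). PDS5A, a partner of WAPL in cohesin release, overlapped 36.6% of all CTCF peaks, 92.5% of WAPL-positive and 80.1% of matched WAPL-free peaks, a difference of 12.4 points (11.2 to 13.5). All 5 lists together (RAD21 in both clones, STAG1, STAG2 and PDS5A) met at 89.9% of WAPL-positive and 56.1% of matched WAPL-free peaks, against 19.3% of all CTCF peaks, and no WAPL-positive peak lacked all 5 (0 of 2636, Wilson upper bound 0.146%; 34.6% of all CTCF peaks lacked them). HA of clone A2, with 230 peaks in its list and a peak at 0.26% of all CTCF peaks, was found at 25 WAPL-positive peaks (0.948%) and 0.637% of matched WAPL-free ones, a difference whose interval covers 0 (-0.22 to 0.84 points).

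**Figure D2:**
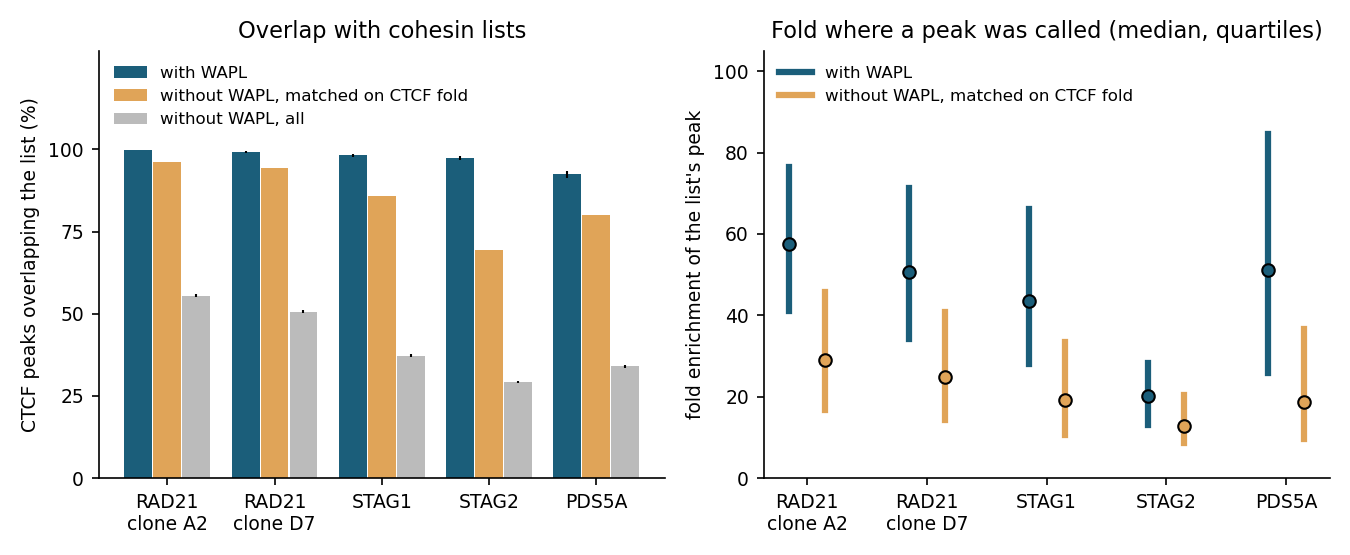
Left, share of CTCF peaks that overlap each cohesin list (percent) for WAPL-positive peaks, all WAPL-free peaks (both with 95% Wilson intervals) and WAPL-free peaks matched on CTCF fold. Right, fold enrichment of the list's peak where one was called, with the median as a point and the quartiles as a bar; STAG2 shows the largest gap in overlap, 97.5% against 69.4% after matching, and PDS5A the largest in fold, a median of 51.2 against 18.8.

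Where a peak was called at both classes, its fold was about 2 times as high at WAPL-positive CTCF peaks as at WAPL-free ones of equal CTCF fold. The medians were 57.5 and 29.0 for RAD21 in clone A2, a ratio of 1.98, and 50.7 and 24.8 for RAD21 in clone D7, a ratio of 2.05. STAG1 had a ratio of 2.26 (43.5 and 19.2), STAG2 of 1.56 (20.1 and 12.9) and PDS5A of 2.73 (51.2 and 18.8). RAD21 level and CTCF level both moved with WAPL. Among CTCF peaks with RAD21 in clone A2, those in the upper 20% of CTCF fold and the upper 20% of RAD21 fold held WAPL in 42.2% of cases (40.6 to 43.8, of 3630). Peaks of the same CTCF class in the lowest 20% of RAD21 fold held WAPL in 0 of 202 cases (Wilson upper bound 1.87%). Peaks of the top RAD21 class in the lowest 20% of CTCF fold did in 2 of 47 (4.26%), with a wide interval (1.17 to 14.2). Over all CTCF peaks with RAD21 in clone A2, 2633 of 33968 held WAPL. Of the 679 CTCF peaks in the upper 2% by RAD21 fold of clone A2, 66.0% (62.3 to 69.4) were WAPL-positive. The upper 2% by CTCF fold is a larger set of 1182 peaks, of which 38.2% (35.4 to 41.0) were WAPL-positive. Of the 500 highest CTCF peaks it was 43.8% (39.5 to 48.2).

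Matching on CTCF fold and on RAD21 fold of clone A2 together, in 10 by 10 bins, reduced the differences between the classes and ended none of those in the other 4 cohesin lists. The matching was chosen after the data had been seen. RAD21 of clone D7 then differed by 0.73 points (0.17 to 1.28), STAG1 by 1.87 (1.20 to 2.54), STAG2 by 3.27 (2.49 to 4.05) and PDS5A by 6.50 (5.24 to 7.76). Of the 28.1 points by which STAG2 differed at equal CTCF fold, 3.27 thus remained within these bins. PDS5A kept the most, with 92.4% of WAPL-positive and 85.9% of matched WAPL-free peaks and a median fold of 51.2 against 33.7. The bins hold only CTCF peaks with RAD21 in clone A2 and are wide, so folds may still differ between the classes inside a bin. RAD21 of clone D7 still had a median fold of 50.8 at WAPL-positive and 43.8 at matched WAPL-free peaks. How much of the remaining differences comes from this was not tested.

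RAD21 calls were also more often kept at WAPL-positive CTCF peaks after dTAGV-1, which targets the tagged NIPBL; the loss of NIPBL itself was not measured in these lists. Here the WAPL-free peaks were matched on the DMSO RAD21 fold of the same clone. In clone A2, 12 of 2633 WAPL-positive peaks had no RAD21 call at 4 h of dTAGV-1 and 42 had none at 24 h. At 4 h 99.5% had kept it, against 97.8% of matched WAPL-free peaks, which differ by 1.78 points (1.09 to 2.47). At 24 h 98.4% had, against 94.8%, which differ by 3.64 points (2.81 to 4.46). Over the whole set of CTCF peaks with RAD21 in that clone, 71.4% kept it at the earlier and 70.9% at the later time. In clone D7, 5 and 7 of 2618 WAPL-positive peaks lost RAD21 at these times, and the matched differences were 1.12 points (0.53 to 1.71) and 2.72 points (1.99 to 3.45), where 85.9% and 77.4% of all CTCF peaks with RAD21 in that clone kept it. These differences depend on the matching. On CTCF fold and DMSO RAD21 fold together, a matching chosen after the data had been seen, they were 0.60 points (0.10 to 1.11) and 1.69 points (1.01 to 2.37) in clone A2, and 0.39 points, with an interval that covers 0 (-0.12 to 0.91), and 1.27 points (0.74 to 1.80) in clone D7. On CTCF fold alone they were 13.0 and 11.9 points for clone A2, and for clone D7 3.82 and 9.84. All 6 RAD21 lists met at 97.8% of WAPL-positive peaks, at 76.1% of WAPL-free peaks matched on CTCF fold and at 31.7% of all CTCF peaks. WAPL was precipitated only from wild-type cells, so whether its own peaks change with NIPBL was not analysed here.

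WAPL also followed PDS5A fold, and a few strong PDS5A sites held WAPL without CTCF or RAD21. Of PDS5A peaks in the upper 10% by fold (42.5 or higher), 1406 of 2889 held a WAPL peak (48.7%, 46.8 to 50.5), against 8.46% of all PDS5A peaks. Of these upper PDS5A peaks 22 lacked CTCF, or RAD21 in both clones; 7 of the 22 held WAPL (31.8%, 16.4 to 52.7), against 48.8% of those with both, and 21 lay within 1 kb of a gene start, against 347 of all 2889 upper PDS5A peaks. Over PDS5A peaks of any fold, 9 of 8767 that lacked CTCF or RAD21 held WAPL (0.103%), against 12.1% of those with both. The 22 WAPL peaks with no CTCF peak were mostly faint, with a median WAPL fold of 4.03, and 14 of them lay in none of the 5 cohesin lists, but the highest were strong PDS5A sites. At chr17:39461166-39461627, 110 bp from the start of CDK12, a kinase of elongating RNA polymerase II, the WAPL fold was 14.2 and the PDS5A fold 202, and RAD21, STAG1, STAG2 and CTCF had no peak. A peak at chr14:101948029-101948398, 16398 bp from the start of DYNC1H1, had folds of 13.3 for WAPL and 57 for PDS5A and no other list. Others lay 91 bp from the start of ERCC6L2 (WAPL 8.71, PDS5A 207) and 40 bp from the start of MDH2, mitochondrial malate dehydrogenase (5.83 and 56.3). At ERCC6L2 and MDH2, RAD21 of clone D7 had weak peaks with folds of 4.38 and 4.11. In all, 7 WAPL peaks had PDS5A and no RAD21 in DMSO in either clone, 5 of them within 1 kb of a gene start, and their PDS5A folds ran from 2.84 to 202.

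WAPL summits lay close to the CTCF summit, and RAD21, STAG1 and STAG2 summits lay further from it. Over the 2645 overlapping pairs the distance between the WAPL and the CTCF summit had a median of 13 bp (quartiles 5 and 23), and 95.4% were within 50 bp. At the 2369 WAPL-positive CTCF peaks with all 5 cohesin lists, the median distance from the CTCF summit was 13 bp for WAPL, 15 for PDS5A, 27 for RAD21 in clone A2, 28 for RAD21 in clone D7, 32 for STAG1 and 37 for STAG2. WAPL was nearer to CTCF than STAG2 at 87.5% of these sites, nearer than RAD21 of clone A2 at 73.7% and nearer than PDS5A at 55.7%. At WAPL-free peaks matched on CTCF fold, RAD21, STAG1, STAG2 and PDS5A stood at similar distances, with medians of 23 in both clones, 29, 34 and 18 bp.

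The cohesin subunits shared one side of CTCF. With each site oriented by the side on which the RAD21 summit of clone A2 lay, at 2070 sites where it was at least 10 bp away, RAD21 of clone D7 was on the same side at 1966 sites, STAG1 at 1963 (94.8%) and STAG2 at 2043 (98.7%). Their median offsets toward that side were 29, 33 and 39 bp. WAPL was on the RAD21 side at 58.2% of sites (56.1 to 60.3) with a median offset of 4 bp, and PDS5A at 53.6% (51.5 to 55.8) with a median offset of 2 bp. WAPL and PDS5A thus lay close to the CTCF summit with a small shift to the RAD21 side. Their quartiles were -7 and 18 bp for WAPL and -9 and 22 bp for PDS5A.

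**Figure D3:**
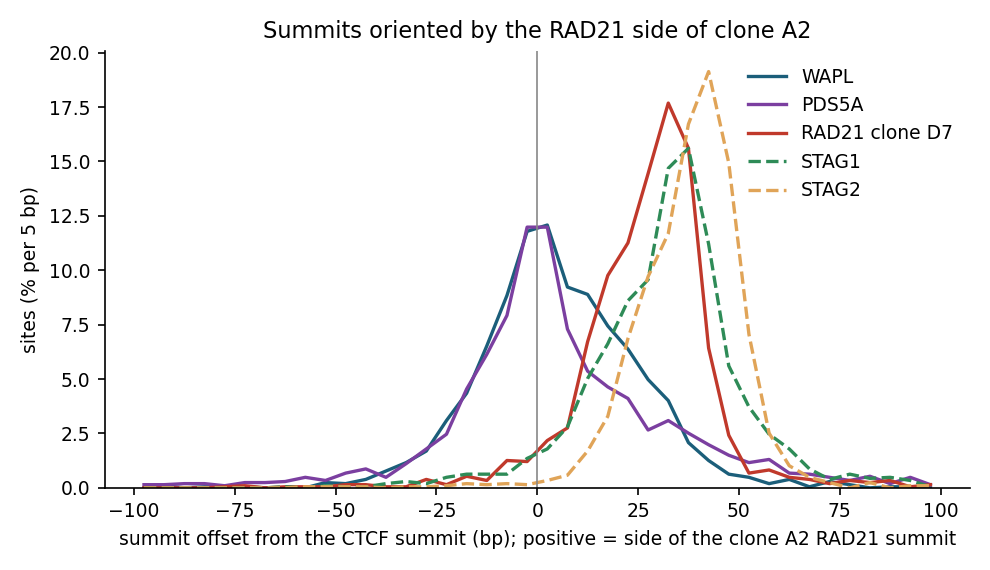
Distribution of summit offsets from the CTCF summit (bp, 5 bp bins; vertical axis, percent of 2070 WAPL-positive sites), with positive values on the side of the RAD21 summit of clone A2. WAPL and PDS5A peak at the CTCF summit (medians 4 and 2 bp), and RAD21 of clone D7, STAG1 and STAG2 peak on the RAD21 side (medians 29, 33 and 39 bp).

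The motif of the promoter sites gave the same order with a direction that does not rest on RAD21. At 24 WAPL-positive CTCF peaks with a core within 50 bp of the CTCF summit, counted along the motif strand from the middle of the core, the RAD21 summits of both clones and the STAG1 and STAG2 summits lay past the core at 24 of 24 sites. Their medians were 19.5 and 20.5 bp for RAD21 in clones A2 and D7, 23.5 for STAG1 and 29 for STAG2. The WAPL summit lay past the core at 11 and before it at 13 of these sites (median -4 bp), and PDS5A past it at 6 of 24 (median -11 bp), as did CTCF (6 of 24, median -10.5 bp). In the printed sites, the RAD21 summit of clone A2 stood 19.5 bp past the core of LOC101927369, LOC105378621 and AHCYL1, 18.5 past that of LINC00398 and 68.5 past that of LINC02551, while WAPL stood at 13.5, 10.5, -20.5, -16.5 and 9.5 bp. At 201 WAPL-free CTCF peaks with a core, RAD21 of clone A2 was called at 144 and lay past the core at 102 of them, and STAG2 was called at 62 and lay past it at 57.

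WAPL-positive CTCF peaks were less often at gene starts than WAPL-free peaks of equal CTCF fold. The CTCF summit lay within 1 kb of the start of a protein-coding gene at 145 WAPL-positive peaks (5.50%), against 14.6% of matched WAPL-free peaks and 11.7% of all CTCF peaks, a difference of -9.07 points (-10.3 to -7.87). In the tenth decile of CTCF fold, 99 of 812 peaks at gene starts held WAPL (12.2%, 10.1 to 14.6), against 1479 of 5101 away from them (29.0%, 27.8 to 30.3), and in the ninth 4.69% against 12.7%. In the eighth the shares were 2.33% (1.27 to 4.23) and 4.50% (3.99 to 5.09). In the seventh, 8 peaks at gene starts held WAPL (interval 0.815% to 3.13%), against 1.13% of the others. In the fourth the order was the opposite, with 5 of 734 peaks at gene starts (0.681%, 0.291 to 1.58) against 1 of 5180 others (0.0193%, up to 0.109), and in the third and second 1 peak each held WAPL, both at gene starts. The summit lay inside a protein-coding gene at 40.4% of WAPL-positive and 45.5% of matched WAPL-free peaks (50.9% of all CTCF peaks), a difference of -5.13 points (-7.26 to -3.00). Inside a gene but over 1 kb from a start lay 38.3% and 39.9% (43.7% of all), a difference of -1.67 points whose interval covers 0 (-3.77 to 0.43). Within 2.5 kb of a start lay 9.75% and 20.9% (16.7% of all), and outside genes and over 1 kb from a start lay 56.2% and 45.5% (44.6% of all). The median distance to the nearest gene start was 23637 bp at WAPL-positive and 16337 bp at matched WAPL-free peaks.

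Cohesin differed in the same direction at gene starts. Among CTCF peaks of the upper 20% by fold, STAG2 was called at 49.9% of 1260 peaks at gene starts and 80.0% of 10567 away from them, and the median RAD21 fold of clone A2 was 23.6 and 35.4. PDS5A went the other way in overlap, with 93.0% at gene starts and 80.1% away. With matching on both CTCF and RAD21 fold the difference in gene starts fell to -3.32 points (-4.64 to -2.00), and that inside genes to -1.13 points, with an interval that covers 0 (-3.54 to 1.28). The called WAPL peaks at and away from gene starts had the same median pileup (39 fragments) and background (3.93). These values cover called peaks only and cannot show whether WAPL was equally detectable at CTCF peaks without a call, which was not tested. Whether a peak inside a gene was exonic or intronic was not analysed here.

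**Figure D4:**
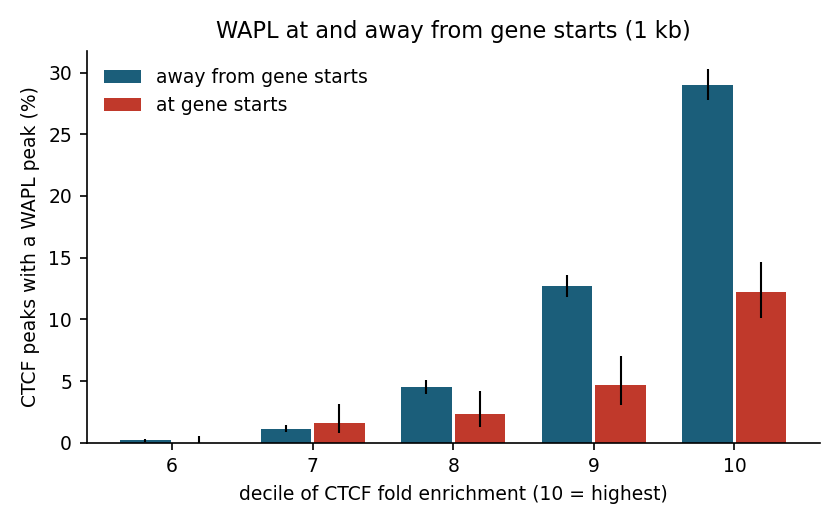
Share of CTCF peaks with a WAPL peak (percent, with 95% Wilson intervals) in the upper 5 deciles of CTCF fold, for peaks within 1 kb of a protein-coding gene start and for the others. In the tenth decile the share is 12.2% at gene starts and 29.0% away from them.

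The gene starts with the strongest WAPL were those of COMTD1 (139 bp from the summit, WAPL fold 22.6), DUSP13B, a phosphatase gene (626 bp, 21.6), DENR, which acts in translation reinitiation (24 bp, 21.1), GBF1, a Golgi exchange factor (686 bp, 19.04), and GRIN2A, an NMDA receptor subunit (320 bp, 17.0). They were followed by CDK12 (14.2), SPOCK1 (14.1), the potassium channel gene KCNH1 (14.1), the immune checkpoint gene LAG3 (13.7) and PLCB1, a phospholipase C (13.6); for SPOCK1, LAG3 and PLCB1 the table gives no strand and the distance is to either gene end. All but CDK12 had all 5 cohesin lists. Of the 151 WAPL summits within 1 kb of a gene start, 145 had a CTCF peak. NTM, a neural adhesion gene of 966 kb, held 5 WAPL summits, among 33 CTCF summits, and no other gene held more than 3. CAMTA1, COL21A1, CORO2B, HSPA12A, NAV3, PLEKHA7, RANBP2 and TRPM3 held 3 each, 75 genes held 2 and 924 held 1.

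Gene groups were read by WAPL peaks within 10 kb of a gene, which 10.1% of all 19974 protein-coding genes had. Among 39 HOX genes, which pattern the body axis, 15 had one, but these came from only 5 WAPL peaks, because neighbouring genes share a peak. One peak with a WAPL fold of 9.47 lay 4.49 kb from HOXA7 and 1.27 kb from HOXA9, one with 7.11 inside HOXB3, one with 11.3 was 2.37 kb from HOXB9, one with 8.53 was 2.87 kb from HOXC8 and 2.78 kb from HOXC9, and one with 11.6 was 1.83 kb from HOXD13. The CTCF folds at these 5 sites ran from 100.4 to 119. Of 16 imprinted genes 5 had a WAPL peak: IGF2, a growth factor expressed from the paternal copy, had peaks of WAPL fold 14.1 and 9.23, 2.58 and 7.08 kb outside the gene, and CDKN1C (8.18), KCNQ1 (8.30), GNAS (8.56) and PLAGL1 (4.88) had 1 each. The 53 clustered protocadherin genes, whose alternative promoters are chosen by CTCF and cohesin in neurons, had none. Of these genes 48 had a CTCF peak (90.6%), against 81.2% of all protein-coding genes. Of the 47 CTCF peaks there 0 were WAPL-positive, against 4.46% of all CTCF peaks. Whether 0 of so few peaks lies below that share was not tested. These 47 peaks had a median CTCF fold of 18.4 (up to 94.0), and 4 had STAG2.

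Cohesin's own genes and its regulators had WAPL peaks within 10 kb at 2 of 19 (10.5%), near the 10.1% of all protein-coding genes. These peaks lay 5.69 kb from CTCF (WAPL fold 8.49) and 4.42 kb from SMC3 (8.25). Like most genes, WAPL, NIPBL, PDS5A and STAG2 had none. Among 15 targets of YAP and TGF-beta 4 had one (26.7%), among them AJUBA (10.0), COL1A1, the collagen I chain (7.35), and ANKRD1 (6.51). Of 16 retinal pigment epithelium genes 2 did (12.5%), BEST1, a chloride channel (WAPL fold 9.33), and TYRP1, a melanin enzyme (9.34). Of 16 cell cycle and p53 genes E2F1 alone had one (6.25%, WAPL fold 14.9). Whether the share of any of these short lists differs from that of all genes was not tested. Every WAPL peak in these groups overlapped CTCF and RAD21 of clone A2. The lists were chosen with earlier results known, and genes of one cluster are not independent.

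Spacing from other CTCF peaks, WAPL-positive or not, was similar in both classes. The nearest other CTCF summit was 9036 bp away (quartiles 4005 and 19143) at WAPL-positive and 8963 bp (4114 and 19424) at matched WAPL-free peaks, a ratio of 1.01, and the median number of other CTCF summits within 100 kb was 6 in both. The nearest other CTCF peak was itself WAPL-positive at 5.58% of WAPL-positive and 5.18% of matched WAPL-free peaks (4.58% of all CTCF peaks), a difference of 0.40 points whose interval covers 0 (-0.65 to 1.44). Another WAPL-positive peak lay within 100 kb at 29.6% and 29.4% (25.0% of all CTCF peaks; interval of the difference -1.83 to 2.13 points). The nearest WAPL-positive CTCF peak was a median of 218939 bp away from a WAPL-positive peak and 216798 bp from a matched WAPL-free one. The distance to RAD21 peaks without CTCF differed. The nearest one of clone A2 in DMSO lay at a median of 144753 bp from WAPL-positive and 180920 bp from matched WAPL-free peaks. This is a ratio of 0.80, with no interval computed.

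WAPL-positive peaks were not spread over chromosomes as CTCF fold alone would place them. Summing over each chromosome the WAPL share of every CTCF peak's fold bin gives a number to set beside the observed one, and on 16 of 23 chromosomes the 2 were within 10%. Chromosome 10 held 179 WAPL-positive peaks where its CTCF folds give 125, a ratio of 1.43 (exact Poisson interval 1.23 to 1.65). Chromosome X held 21 against 38.7, a ratio of 0.543 (0.336 to 0.830), and chromosome 19 held 97 against 145, a ratio of 0.670 (0.543 to 0.817). With bins of RAD21 fold in place of CTCF fold these ratios were 1.33, 0.762 and 0.989, so chromosome 19 no longer stood apart. Along chromosome 10 the ratio was 1.07 and 0.910 over the first 2 stretches of 20 Mb, between 1.51 and 1.70 from 40 to 120 Mb, and 1.20 (0.70 to 1.92) beyond. The stretch from 40 to 60 Mb had a wide interval too (0.83 to 2.54).

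The local background moved with 2 of these chromosomes. The median background pileup at WAPL summits was 5.03 on chromosome 10, with 5.09 to 5.89 beyond 60 Mb, 4.67 on chromosome 12, 3.15 on chromosome X and 3.93 on chromosome 19, against 3.87 over all chromosomes but 10. hTERT RPE-1 is known to carry a gain of part of the long arm of chromosome 10. The part of background or copy number in the WAPL calls was not tested. Within chromosome 10 the stretch beyond 120 Mb held 17 WAPL-positive peaks and had the highest background (5.89) and a ratio of 1.20 (0.70 to 1.92). The stretch from 40 to 60 Mb held 14 and had a background of 3.43 and a ratio of 1.51 (0.83 to 2.54). These wide intervals overlap, so the stretches cannot be ranked. Chromosome 12, with the second highest background, had a ratio of 1.03 (0.868 to 1.22).

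**Figure D5:**
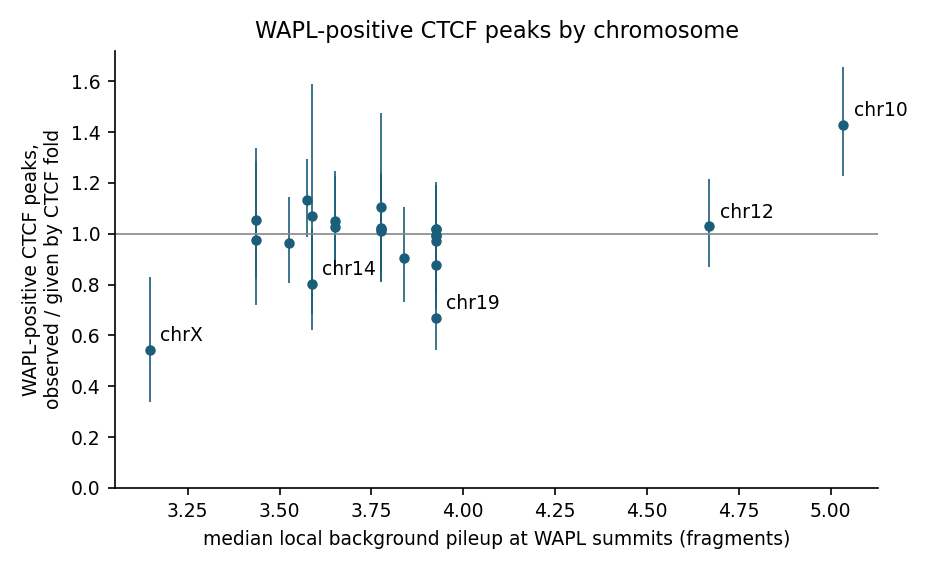
Each point is a chromosome: WAPL-positive CTCF peaks observed over the number its CTCF folds give (vertical axis, with exact Poisson 95% intervals) against the median local background pileup at its WAPL summits (horizontal axis, fragments). Chromosome 10 lies highest on both axes (1.43 and 5.03) and chromosome X lowest (0.543 and 3.15).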

How the data were processed

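The deposited files are peak lists, 1 per immunoprecipitation library, each called on its own. Per the submitters' processing notes, the tools were BWA, Picard, SAMtools, bedtools, deepTools and MACS2 and the builds hg38 and mm10, with no versions or roles. The signal column holds the fold enrichment as a ratio the authors deposited; p and q stand in further columns, each as the −log10 the authors deposited, and the score the authors deposited is 10 times the −log10 q cut to a whole number in nearly all peaks. Summit pileups were recovered from fold and −log10 p under a Poisson model for −log10 p up to 250, and the whole pileup gave back the −log10 p within 0.001 for 100% of the 2667 WAPL peaks and of the 31119 of 59138 CTCF peaks under that limit; read totals were not used here.

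Overlap means at least 1 bp. Matched values weight WAPL-free peaks to the WAPL-positive ones over 50 bins of CTCF fold (retention: DMSO RAD21 fold of the clone). The matching was tested on simulated data. Gene names are from RefSeq GRCh38.p14, with 19974 protein-coding genes; starts are those of its promoter table for 15813 genes and either gene end for 4161. Named were the 10 WAPL peaks of highest fold, the 5 CTCF peaks of highest fold without WAPL, the 5 WAPL peaks of highest fold without CTCF, the genes with most WAPL summits, the 10 gene starts with the highest WAPL fold, and gene lists; some items under these rules are not reported here. Members, lists and tests were chosen with earlier results of these data known. Alternatives were the WAPL and CTCF thresholds, summit distance in place of overlap, the bins, the matching measure, list length and the gene window. Python 3.11.15, numpy 2.4.6, pandas 2.3.3 and scipy 1.17.1 were used.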

Additional observations from a re-analysis of the deposited data

How the results depend on the processing

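Of 73 recomputed values over 15 results, 47 stayed within the interval of the reported value and 26 moved outside it. All 60 recomputed matched differences kept their sign; the ratio of distances to the nearest other CTCF peak was 0.986 with 10 bins, within its interval. Of WAPL peaks with a −log10 q over 5, 99.7% overlapped CTCF. Of all WAPL peaks, 97.5% had a CTCF summit within 200 bp. With each cohesin list cut to its strongest 20000 peaks the matched differences were 18.8 points for RAD21 in clone A2, 14.5 for RAD21 in clone D7, 17.1 for STAG1, 29.5 for STAG2 and 14.1 for PDS5A. Matching on the CTCF −log10 q gave 11.5 points for STAG1, and 10 bins gave 13.9 for PDS5A and -7.59 for gene starts. The gene start difference was -11.1 points with a window of 2.5 kb and -7.68 with starts of the promoter table only. Matching on CTCF and RAD21 fold gave 0.73 points for RAD21 in clone D7, 1.87 for STAG1, 3.27 for STAG2, 6.50 for PDS5A, -3.32 for gene starts and -1.13 for genes, the last with an interval that covers 0, and for retention at 4 h and 24 h 0.60 and 1.69 points (clone A2) and 0.39, with an interval that covers 0, and 1.27 (clone D7). Matched on CTCF fold, retention differed by 13.0 and 11.9 points (clone A2) and by 3.82 and 9.84 (clone D7). The matching on 2 folds, the promoter table starts and leaving out chromosomes 10, 19 and X were chosen after seeing the data. No paired analysis was possible because every group has 1 library. WAPL-free peaks are those without a WAPL call in a shallow library, the 5 cohesin lists come from tagged clones, and intervals cover counting error only.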

Other observations

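WAPL peaks overlapped some CTCF peaks of low fold, and the examples here were chosen after their values were seen. At the start of FARP1 (219 bp away), a regulator of cell shape, a CTCF peak of fold 4.52 held WAPL (6.04), with RAD21 folds of 50.2 in clone A2 and 27.1 in clone D7, STAG1 at 26.6, STAG2 at 8.81 and PDS5A at 50.6. At TMEM18 and PPP4R3B, CTCF peaks of fold 6.81 and 9.40 held WAPL (5.46 and 9.45) and PDS5A (77.8 and 63.3) with no RAD21, STAG1 or STAG2 peak. Near RBM39, a splicing regulator, the CTCF fold was 8.47, the WAPL fold 13.5 and the PDS5A fold 187, with RAD21 at 2.98 and 3.81 in clones A2 and D7. The WAPL summit lay 184 bp from the CTCF summit at FARP1, 262 bp at RBM39, 76 bp at PPP4R3B and 25 bp at TMEM18. The median over all overlapping pairs was 13 bp, so at FARP1 and RBM39 the peaks overlapped without a shared centre.

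The strongest RAD21, STAG1 and PDS5A peaks at CTCF held WAPL more often than the strongest CTCF peaks (38.2%, 35.4 to 41.0), and the strongest STAG2 peaks did not. Of CTCF peaks in the upper 2% by fold of a list, 68.3% (64.5 to 71.8) held WAPL for RAD21 of clone D7, 68.9% (64.6 to 72.9) for STAG1 and 77.8% (73.6 to 81.4) for PDS5A. For STAG2 the share was 31.4% (27.0 to 36.2), below that of CTCF, although STAG2 overlap differed most between the classes. The lists differ in length. The upper 2% held 624 CTCF peaks for RAD21 of clone D7, 473 for STAG1, 432 for PDS5A and 382 for STAG2. For CTCF it held 1182, and of the 500 highest CTCF peaks 43.8% (39.5 to 48.2) held WAPL. In the lower 50% by STAG2 fold 558 of 9553 CTCF peaks held WAPL (5.84%), against 37 of 16984 (0.218%) by RAD21 fold of clone A2. Over the whole lists, 2570 of 19106 CTCF peaks with STAG2 and 2633 of 33968 with RAD21 held WAPL. The sets compared are thus unlike.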
